A study of Mus musculus with 2 samples.

Results

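The 10 genes described here, Mki67, Top2a, Hist1h2ap, Stmn1, Birc5, Cdk1, Pcna, H2afz, Hmgb2 and Tubb5, act in chromosome copying, packaging and segregation or in the spindle. They were taken by symbol, and all 10 were found among 31053 genes. They were read in droplet-based single-cell RNA sequencing of cortical myeloid cells sorted from male C57BL/6J mice that were 5xFAD hemizygous (carrying amyloid-producing transgenes), gated as singlets without SYTOX or Ly6G and with CD45 and CD11b. The light-activated drug Visudyne (5 uL) was given through the cisterna magna at 4 months of age and again 3 weeks later, and tissue was taken 3 weeks after that, at 5.5 months. In the photoconversion group each injection was followed by 5 steps of transcranial 689-nm red light, used to ablate meningeal lymphatic vessels, and the control group received Visudyne without light. Both groups carry the 5xFAD transgenes and the injections. The comparison asks how ablating these vessels bears on cortical microglia.

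Each group was 1 library from the pooled cells of 3 mice, so no difference between groups has a replicate check and no test was possible. Intervals are 95% and cover counting error only, since UMIs (unique molecular identifiers, counted RNA molecules) of 1 cell are not independent of each other. Kept cells had 200 or more detected genes and no more than 10% mitochondrial UMIs, 317 of 2000 in the photoconversion and 555 of 2000 in the control library. Kept photoconversion cells had a median of 3410 UMIs and kept control cells 2670. At least 3 of 12 microglia markers were detected in 314 photoconversion and 550 control cells. The libraries shared 27 barcodes, 0 of them kept in both, and 1 cycling cell's barcode also occurred among the barcodes of the other library that were not kept.

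Microglia maintain their numbers by local division, and in amyloid models they divide more. A dividing cell copies its DNA in S phase, behind the sliding clamp PCNA and with new core histones, and segregates it in mitosis after CDK1 activation. Mki67 (the Ki-67 protein that coats mitotic chromosomes), Top2a (the topoisomerase that untangles sister chromatids), Birc5 (survivin, of the chromosomal passenger complex) and Cdk1 are largely silent outside the cycle. Many G2 and mitotic genes carry CHR elements bound by the MuvB-based complexes, together with CCAAT boxes bound by NF-Y.

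RefSeq promoters of GRCm38.p6, the assembly also called mm10, were found for 9 of the 10 genes. H2afz is listed there as H2az1, and Hist1h2ap, matched by its synonym and position, as H2ac24. The 200 bases before the RefSeq start are given for 5 genes. Mki67, Top2a, Cdk1 and Hmgb2 are shown because they carry both motifs, and Birc5 because it is cycle-bound without either in its window. Capitals mark the CHR letters TTTGAA or TTCGAA and the CCAAT letters, read on either strand.
Mki67, chr7:135716380-135716579, minus strand: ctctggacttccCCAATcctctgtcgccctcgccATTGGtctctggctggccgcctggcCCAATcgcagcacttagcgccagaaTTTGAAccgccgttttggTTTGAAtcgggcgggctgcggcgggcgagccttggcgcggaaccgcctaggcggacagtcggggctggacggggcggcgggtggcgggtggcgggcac
Top2a, chr11:99024190-99024389, minus strand: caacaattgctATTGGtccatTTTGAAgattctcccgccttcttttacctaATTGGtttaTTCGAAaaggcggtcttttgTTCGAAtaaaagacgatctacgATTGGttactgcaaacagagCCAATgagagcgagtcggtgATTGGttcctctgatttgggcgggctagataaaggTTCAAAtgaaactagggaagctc
Cdk1, chr10:69352913-69353112, minus strand: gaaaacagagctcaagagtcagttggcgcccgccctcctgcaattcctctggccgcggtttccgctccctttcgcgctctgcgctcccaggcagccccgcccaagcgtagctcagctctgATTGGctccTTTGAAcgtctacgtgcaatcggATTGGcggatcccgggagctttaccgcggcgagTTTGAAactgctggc
Hmgb2, chr8:57511643-57511842, plus strand: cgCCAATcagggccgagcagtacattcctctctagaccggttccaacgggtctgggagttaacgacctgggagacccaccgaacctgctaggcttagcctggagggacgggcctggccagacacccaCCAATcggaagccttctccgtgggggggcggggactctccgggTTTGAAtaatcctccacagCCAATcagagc
Birc5, chr11:117849037-117849236, plus strand: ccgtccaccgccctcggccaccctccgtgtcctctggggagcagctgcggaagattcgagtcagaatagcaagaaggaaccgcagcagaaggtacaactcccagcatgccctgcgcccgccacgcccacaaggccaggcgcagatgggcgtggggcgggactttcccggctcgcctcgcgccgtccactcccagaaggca

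Within 250 bases before to 50 after the start, CHR letters were found in 5 of the 9 promoters (Mki67, Top2a, Hist1h2ap, Cdk1 and Hmgb2), against 19.4% of 27018 mouse promoters of the same length. CCAAT letters were found in 8 of 9, against 37.9% of all promoters, and both together in 5 of 9, against 7.70%. Top2a held 4 CHR and 6 CCAAT matches, Mki67 2 and 3, Cdk1 2 and 3, and Hmgb2 2 and 4. An 8-letter E2F match (TTTCGCGC, TTTGGCGC, TTTCCCGC or TTTGCCGC) was found in 1 of 9, that of Cdk1, against 2.32% of promoters. Birc5 had 0 matches of the CHR, CCAAT or E2F letters in this window, and Pcna had 1 CCAAT match. These matches describe the letters of the windows and not the binding of any factor. In the GENCODE vM21 annotation of GRCm38, Mki67 lies on chromosome 7 (135689784 to 135716361, minus strand), Top2a on chromosome 11 (98992943 to 99024189, minus strand) and Hist1h2ap on chromosome 13 (21833026 to 21833507, minus strand). Birc5 lies on chromosome 11 (117849251 to 117855743, plus strand), Cdk1 on chromosome 10 (69335146 to 69352938, minus strand) and Hmgb2 on chromosome 8 (57511907 to 57515999, plus strand). Stmn1 lies on chromosome 4 (134468320 to 134473843, plus strand), Pcna on chromosome 2 (132249162 to 132253314, minus strand), H2afz on chromosome 3 (137864487 to 137866922, plus strand) and Tubb5 on chromosome 17 (35833921 to 35838306, minus strand).

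Most cells carried at least 1 of the genes, and very few carried the cycle-bound ones. Of 872 kept cells 642 (73.6%) had a UMI of any of the 10 genes. Mki67 was found in 9 cells, Top2a in 12, Birc5 in 15 and Cdk1 in 44, against 71 for Hist1h2ap, 122 for Stmn1, 153 for Hmgb2, 161 for Pcna, 422 for Tubb5 and 499 for H2afz. The counts were graded, and the words rare and common are used below only for convenience. Rare means Mki67, Top2a, Birc5 and Cdk1, and common means Stmn1, Hmgb2, Pcna, Tubb5 and H2afz, with Hist1h2ap between them. H2afz, the H2A.Z histone variant, and Tubb5, a beta-tubulin, were the most widely detected.

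Carrier shares were similar in the libraries for the rare genes, within wide intervals. Mki67 was detected in 3 of 317 photoconversion cells (0.946%, 0.196 to 2.74%) and 6 of 555 control cells (1.08%, 0.398 to 2.34%). Top2a was detected in 5 photoconversion cells (1.58%, 0.514 to 3.64%) and 7 control cells (1.26%, 0.509 to 2.58%). Each library thus held few cells of each gene, and the intervals overlapped.

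Shares of the common genes were compared at the cells' own depth and at equal depth. H2afz was in 61.5% of photoconversion cells (55.9 to 66.9%) and 54.8% of control cells (50.5 to 59.0%). When each cell was thinned to 1000 UMIs, leaving out 45 photoconversion and 116 control cells, H2afz was in 30.9% of photoconversion cells (25.4 to 36.7%) and 31.2% of control cells (26.9 to 35.8%). Thinned shares in photoconversion cells were 18.8% for Tubb5, 5.51% for Pcna, 5.15% for Hmgb2 and 4.41% for Stmn1, against 22.1, 6.38, 7.29 and 6.15% in control cells, with overlapping intervals for each gene.

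A background of free RNA was read from 17 kept cells with more vascular and astroglial than microglial marker UMIs, which had a median of 801 UMIs against 2965 in the rest. Mki67, Top2a, Birc5 and Cdk1 were in 0 of these 17 cells, which allows a share of up to 19.5% (exact upper limit). Among the common genes, H2afz was in 58.8% of them against 57.2% of the rest, Hmgb2 in 29.4% against 17.3%, Pcna in 17.6% against 18.5%, and Tubb5 in 29.4% against 48.8%. With both sets thinned to 1000 UMIs, H2afz was in 1 of 8 of these cells (12.5%) and 31.3% of 703 others, Hmgb2 in 0 and 6.54%, Pcna in 1 (12.5%) and 5.97%, and Tubb5 in 2 (25%) and 20.8%. With so few cells, which may also express these genes, no background level could be set for the common genes, and their shares are not read as shares of expressing cells.

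The cycle-bound genes occurred together. A cell was called cycling when at least 3 of 5 core genes (Mki67, Top2a, Hist1h2ap, Birc5 and Cdk1) had a UMI, which held for 10 of 872 cells (1.15%). Of the rest, 763 cells had 0, 90 had 1 and 9 had 2 of the core genes. Just inside the rule were 2 cells with 3 core genes and 19 and 7 other cell cycle genes; just outside were the 9 cells with 2, which had 0 to 14 such genes and a median of 3, so the 2 sides overlapped. Cycling cells held 47 of 48 Mki67 UMIs (97.9%), 82 of 86 Top2a UMIs (95.3%), 73 of 79 Birc5 UMIs (92.4%), 237 of 308 Hist1h2ap UMIs (76.9%) and 54 of 95 Cdk1 UMIs (56.8%). These 5 values describe the rule, since the rule used the same genes.

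Pairs of core genes overlapped unequally. Of the 9 cells with Mki67, 6 (66.7%) also had Top2a, 8 (88.9%) Birc5, 7 (77.8%) Cdk1 and 7 (77.8%) Hist1h2ap. In the 863 cells without Mki67 the shares were 0.695% for Top2a, 0.811% for Birc5, 4.29% for Cdk1 and 7.42% for Hist1h2ap. Cells with Mki67 had a median of 16393 UMIs, against 2959.5 in all kept cells, and pairs were not compared at equal depth. Seen from the other gene, Mki67 was in 6 of 12 Top2a cells, 53.3% of 15 Birc5 cells, 15.9% of 44 Cdk1 cells and 9.86% of 71 Hist1h2ap cells. A lone Cdk1 or Hist1h2ap UMI was thus common outside the cycling cells: 36 other cells had Cdk1 and 62 had Hist1h2ap, with at most 2 and 3 UMIs in any of them. At least 7 of the 10 genes were detected in 9 cells, and all 9 were cycling. For cells with 8 or more of the genes this follows from the rule, which used 5 of the 10.

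**Figure D1:**
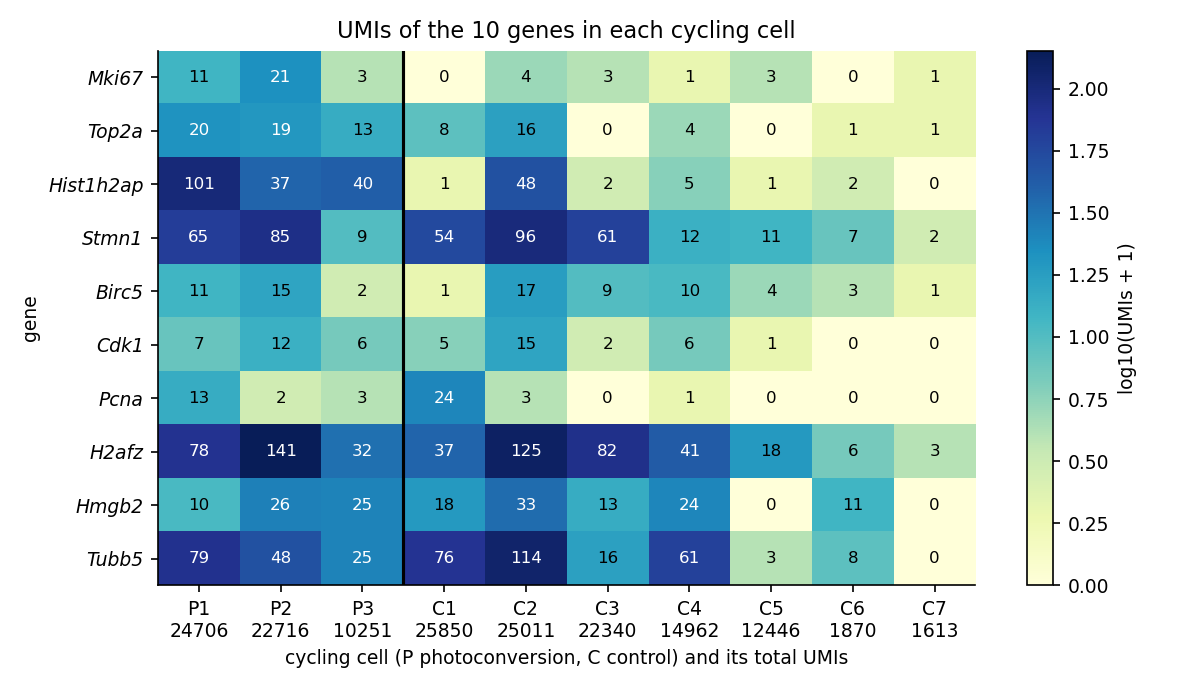
UMIs of each gene (rows) in each of the 10 cycling cells (columns), with total UMIs under each column; P marks the 3 photoconversion cells, C the 7 control cells, colour is log10(UMIs + 1) and numbers are UMIs. The 3 photoconversion cells carry all 10 genes, whereas 2 of the 7 control cells do.

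The cycling cells were 3 of 317 photoconversion cells (0.946%, 0.196 to 2.74%) and 7 of 555 control cells (1.26%, 0.509 to 2.58%). The difference was -0.315 percentage points (-1.83 to 1.63), an interval that includes 0. Per cell, the photoconversion cells had 24706, 22716 and 10251 UMIs, and the control cells 25850, 25011, 22340, 14962, 12446, 1870 and 1613. Of the 10, 8 exceeded 10000 UMIs, and the median of all 10 was 18651 against 2938 in other cells. Among cells above 10000 UMIs the share was 3 of 62 in photoconversion (4.84%, 1.01 to 13.5%) and 5 of 66 in control (7.58%, 2.51 to 16.8%).

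Fewer cells met the rule at equal depth. After thinning to 1000 UMIs, 9 of the 10 cycling cells still had at least 1 core gene and 8 had at least 2, but 4 met the rule, 3 of 272 photoconversion and 1 of 439 control cells. Of the 701 other cells 16 had 1 core gene after thinning and 0 had 2. The thinned share difference was 0.875 points (-0.48 to 2.97), opposite in sign to the unthinned one, and neither interval excludes 0.

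Further cell cycle lists that hold none of the 10 genes were read in the same cells. Their 81 genes comprise 46 of G2 and mitosis and 35 of S phase. Cycling cells had 7 to 65 of these detected, with a median of 43, against a median of 1 in the 763 cells with 0 core genes. These counts rise with depth, and the median depth was 18651 UMIs in cycling cells and 2540 in those 763. As a share of all UMIs, the summed G2 and mitotic list was 98.3 times (80.9 to 120) its level in other cells above 10000 UMIs. The S-phase list was 8.84 times (7.66 to 10.2) its level there. Of 23 G2 and mitotic genes with at least 20 UMIs, 18 reached that minimum only with the cycling cells' UMIs, as did 4 of 19 S-phase genes, so their direction was fixed by the minimum. With 20 UMIs required in the other cells alone, a setting chosen after seeing the data, 5 G2 and mitotic and 15 S-phase genes were left, and each was at least 2-fold higher in cycling than in other cells. Among all 8823 genes with at least 20 UMIs in all kept cells, 13.4% were at least 2-fold higher and 24.6% at least 2-fold lower in cycling than in other cells.

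Named by rule from the G2 and mitotic list, Ube2c (the ubiquitin-conjugating enzyme of the anaphase-promoting complex) stood at 513 CPM (UMIs per 1000000 UMIs of all genes) in cycling and 3.43 CPM in other cells. Its ratio was 149 (84.2 to 285). Cks2, a CDK-binding subunit, had a ratio of 25.5 (18.4 to 35.4). Prc1, which bundles microtubules of the central spindle, had 27 UMIs in cycling cells and 0 in others. Nusap1, a spindle-associated protein, had 34 UMIs in cycling cells and 1 in others. Ube2c, Prc1 and Nusap1 reached the minimum only through the cycling cells, and Prc1 and Nusap1 were named for their ratio, so these values are a description.

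From the S-phase list, Tk1, thymidine kinase, had a ratio of 176 (68.8 to 577) and Atad2, a chromatin ATPase, 26.8 (12.7 to 56.6), both also measured only through the cycling cells. Slbp, which binds the stem-loop of histone mRNAs, had 3.77 (2.37 to 5.77) and Rfc2, of the clamp loader, 2.06 (1.07 to 3.63). Across the 10 cells, 1011 UMIs came from the G2 and mitotic list and 350 from the S-phase list, and 9 cells had more of G2 and mitosis than of S phase.

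**Figure D2:**
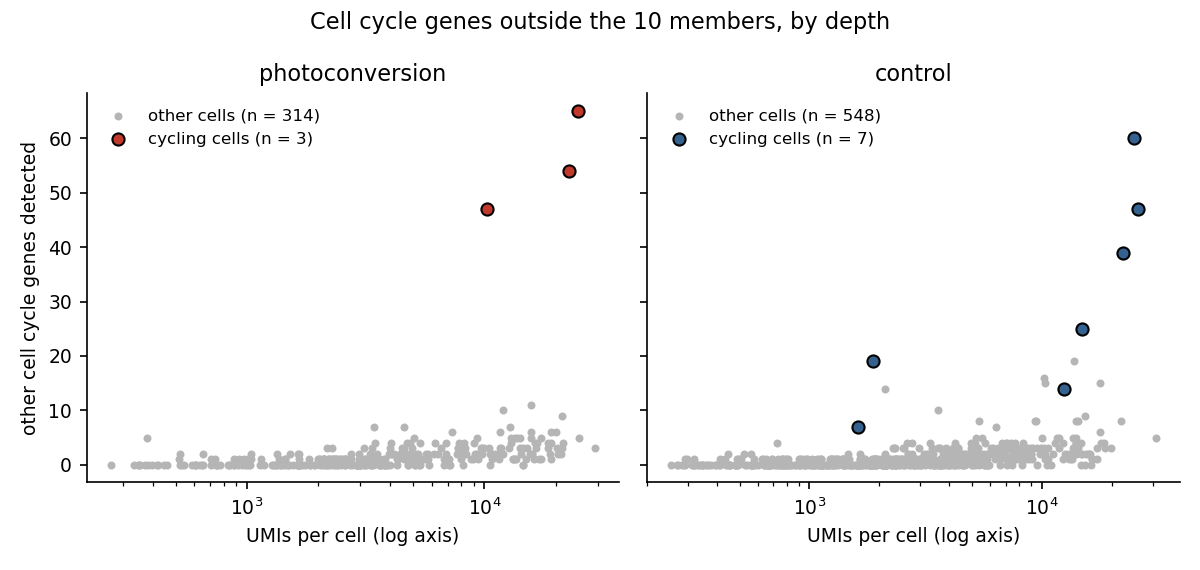
Number of detected cell cycle genes outside the 10 members (y) against UMIs per cell (x, log axis) in photoconversion (left) and control cells (right); large points are cycling cells. The cycling cells reach 65 genes in photoconversion and 60 in control, and the highest other cell, in control, has 19.

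The exception in phase was control cell 1, with 25850 UMIs. It had 129 S-phase and 36 G2 and mitotic UMIs, 24 Pcna UMIs and 0 of Mki67. Photoconversion cell 2 showed the reverse, with 23 S-phase and 240 G2 and mitotic UMIs, 2 of Pcna and 21 of Mki67. Pcna, the replication clamp, and Mki67 were thus highest in different cells of the 10.

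A further 8 cells, 2 in photoconversion and 6 in control, had at least 10 of the other cycle genes but fewer than 3 core genes. All 8 had more S-phase than mitotic UMIs, 118 against 32 in sum, and each had 1 to 5 Pcna UMIs. The same excess was seen in all 862 cells that were not cycling, with 1064 S-phase and 349 G2 and mitotic UMIs, so it does not set these 8 apart. Together with 9 of the cycling cells, 5 of 317 photoconversion cells (1.58%, 0.514 to 3.64%) and 12 of 555 control cells (2.16%, 1.12 to 3.75%) reached that level. The core genes did not pick out these cells, and no phase is called from these counts.

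The 5 genes outside the rule were also higher in cycling cells, each by a different margin. Stmn1, stathmin, which destabilises microtubules, stood at 2485 CPM in cycling and 42.4 CPM in other cells, a ratio of 58.6 (48.9 to 70.4). Hmgb2, a DNA-bending chromatin protein, stood at 989 CPM against 51.0 CPM, a ratio of 19.4 (15.7 to 23.9). Tubb5 had a ratio of 9.76 (8.71 to 10.9), H2afz 8.80 (7.98 to 9.69) and Pcna 4.79 (3.42 to 6.59). All 5 were past 2-fold, against 13.4% of all genes.

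The ratios were recomputed, after seeing the data, with cells above 10000 UMIs on both sides, 8 cycling and 120 other. They were 57.8 for Stmn1 (45.2 to 74.8), 20.8 for Hmgb2 (15.8 to 27.7), 9.86 for Tubb5 (8.63 to 11.3), 9.03 for H2afz (8.06 to 10.1) and 4.38 for Pcna (3.05 to 6.20). Over all 10 cycling cells against the same 120, 14.1% of 6415 genes were at least 2-fold higher and 1027 at least 2-fold lower. At 1000 UMIs per cell, Stmn1 averaged 1.9 UMIs in the cycling cells and 0.0499 in the others, Hmgb2 1.3 and 0.0585, H2afz 3.5 and 0.409, Tubb5 2.7 and 0.245, and Pcna 0.2 and 0.0628. The Pcna value is 2 UMIs in all, so its thinned difference is not read.

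Per cell, Stmn1 had 65, 85 and 9 UMIs in the photoconversion cycling cells and 54, 96, 61, 12, 11, 7 and 2 in the control cycling cells. Every cycling cell carried it, and the groups overlapped fully. H2afz had 78, 141 and 32 UMIs in photoconversion and 37, 125, 82, 41, 18, 6 and 3 in control cycling cells. Pcna had 13, 2 and 3 in photoconversion and 24, 3, 0, 1, 0, 0 and 0 in control cycling cells, so 4 control cells had none.

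**Figure D3:**
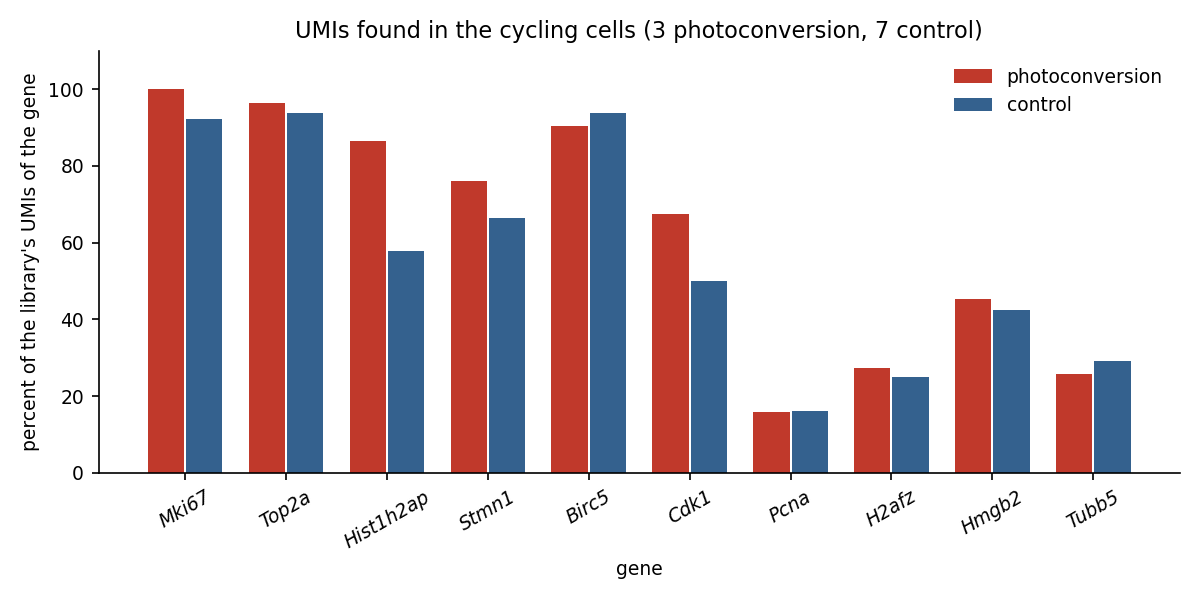
Percent of each library's UMIs of a gene (y) that lay in its cycling cells, 3 in photoconversion and 7 in control. Mki67, at 100% in photoconversion and 92.3% in control, Top2a, Hist1h2ap, Birc5 and Cdk1 define the cycling cells, so their bars describe the rule. Of the genes outside the rule, Stmn1 lies at 76.1% in photoconversion and 66.4% in control. Tubb5 lies at 25.8% in photoconversion and 29.2% in control.

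Other histone genes were read from lists of replication-dependent and variant genes. Of 27 replication-dependent histone genes found, 6 had at least 20 UMIs and 4 of those were at least 2-fold higher in cycling cells, against 13.4% of all genes, with a median log2 ratio of 1.49 against 0.11 over all genes. The linker histone genes Hist1h1e and Hist1h1c had ratios of 7.20 (2.84 to 16.2) and 3.21 (1.93 to 5.07), whereas Hist1h2bc, the one with most UMIs, had 1.12 (0.670 to 1.78). Of 7 measured variant histones, with a median of 1.15, 4 passed 2-fold: H2afx, which is phosphorylated at DNA breaks, at 25.6 (17.9 to 36.5), H2afv, another H2A.Z gene, at 8.76 (6.81 to 11.2), H3f3a at 2.21 (1.88 to 2.58) and H2afy at 2.22. H3f3b was at 1.91 (1.67 to 2.17). Replication-dependent histone mRNAs end in a stem-loop and mostly lack the poly(A) tail that droplet libraries capture, and near-identical H2A copies share sequence, so the Hist1h2ap counts are uncertain both in level and in gene of origin.

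Some relatives of the 10 genes were higher in cycling cells too. Of 21 measured paralogs and partners 9 were at least 2-fold higher, against 13.4% of all genes, and 3 at least 2-fold lower, against 24.6%, with a median log2 ratio of 0.64. Tubb4b and Tuba1c, further tubulins, had ratios of 12.7 (9.36 to 17.1) and 11.7 (8.11 to 16.7), Tuba1b 8.12 (7.32 to 9.0), and Hmgb1, the close relative of Hmgb2, 3.56 (3.04 to 4.16). Top2b, the isoform of Top2a used outside division, had 1 UMI in cycling and 55 in other cells, a ratio of 0.458 (0.0114 to 2.66) that includes 1.

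Across the 872 cells the 10 genes outside the members whose log-scaled level was most like the mean of the core genes, among 8422 genes seen in at least 20 cells, were Cks1b, Spc24, Cenpa, Smc4, Cks2, H2afx, Rrm1, Cdkn2d, Smc2 and Hmgn2. Pearson's r ran between 0.36 for Hmgn2 and 0.47 for Cks1b, and 6 of the 10 belong to the cycle lists above. Of the 5 genes outside the rule, r with the same mean was 0.54 for Stmn1, 0.39 for Hmgb2, 0.27 for Tubb5, 0.25 for H2afz and 0.16 for Pcna. These correlations describe cells that share library and depth, and the contribution of the cycling cells to them was not separated.

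The cycling cells carried microglial markers, and few UMIs came from markers of other cell types. Of the 12 microglia markers 9 to 12 were detected in each cell, with 75 to 1398 UMIs. Neuron markers had 2 UMIs in the 10 cells together, lymphocyte markers 3, border macrophage markers 6, monocyte markers 7, neutrophil markers 13, oligodendrocyte markers 15 and astrocyte markers 25. The 139 endothelial marker UMIs came from at most 2 of 10 genes in a cell, and stood at 859 CPM in cycling and 1160 CPM in other cells. Summed microglia markers stood at 54085 CPM in cycling and 69537 CPM in other cells. Control cell 7, with 1613 UMIs, 8.93% of them mitochondrial, had 9 astrocyte marker UMIs of 5 genes. Photoconversion cell 3 had 0.146% mitochondrial UMIs, the lowest of the 10. Doublets were not called, so a cycling cell that is a pair of cells cannot be told apart from a single cell.

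The state of the cycling cells was read from Cst7, a cystatin induced in disease-associated microglia, P2ry12, a purinergic receptor of homeostatic microglia, and Apoe, a lipid carrier of the disease-associated program. Apoe was lower in cycling cells. It stood at 2930 CPM against 9991 CPM in other cells, a ratio of 0.293 (0.267 to 0.321), and at 2786 CPM in the 8 cycling cells above 10000 UMIs against 13047 CPM in other cells of that depth, a ratio of 0.214 (0.194 to 0.235). Per 10000 UMIs, Apoe was 55.5, 3.96 and 12.7 in the photoconversion cycling cells and 8.90, 29.99, 20.1, 16.04, 92.4, 134 and 49.6 in the control cycling cells. The median of these 10 was 25.1 against 109 in other cells above 10000 UMIs and 21.1 in all other cells, so the median over all other cells did not show the difference seen in the sums.

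Cst7 differed less. It stood at 3468 CPM in cycling and 3281 CPM in other cells, a ratio of 1.06 (0.970 to 1.15) that includes 1. Against other cells above 10000 UMIs the 8 deep cycling cells had 3487 CPM against 5024 CPM, a ratio of 0.694 (0.636 to 0.757). Per 10000 UMIs Cst7 was 42.1, 22.5 and 7.80 in photoconversion and 18.2, 28.4, 55.5, 45.4, 63.5, 32.1 and 18.6 in control cycling cells. All 10 carried it, while 1 of 120 other cells above 10000 UMIs and 274 of all 862 other cells had 0. The libraries differed: within photoconversion cells the cycling-over-other ratio was 0.772 (0.657 to 0.902) and within control cells 1.28 (1.15 to 1.41), a difference that was not tested.

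P2ry12 changed direction with the cells it was set against. It stood at 1039 CPM in cycling and 1794 CPM in other cells, a ratio of 0.579 (0.494 to 0.675), but at 1061 CPM against 944 CPM above 10000 UMIs, a ratio of 1.12 (0.954 to 1.32) that includes 1. Per 10000 UMIs it was 11.3, 15.4 and 17.6 in photoconversion and 18.2, 11.99, 3.58, 0, 1.61, 0 and 0 in control cycling cells. The 3 photoconversion cells and 2 control cells lay above the median of other cells above 10000 UMIs (8.68), though not all above that of all other cells (14.7), and 3 control cells had none, 2 of them with under 2000 UMIs.

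**Figure D4:**
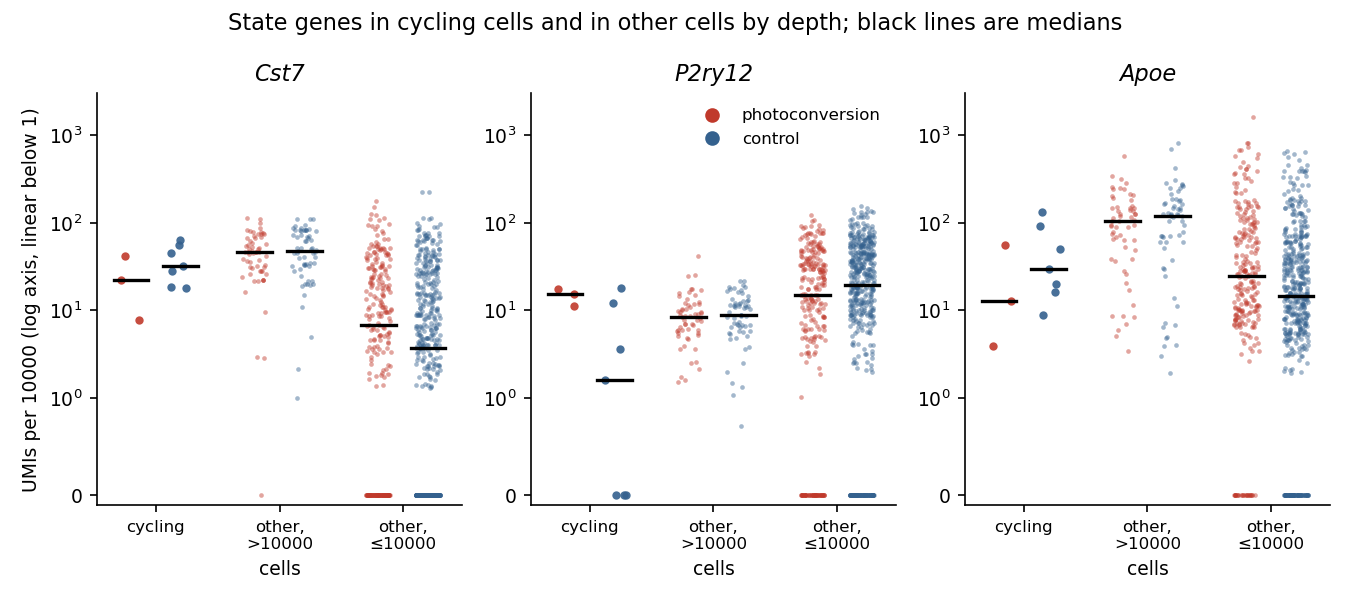
UMIs per 10000 of Cst7, P2ry12 and Apoe (y, log axis, linear below 1) in cycling cells, other cells above 10000 UMIs and other cells at or below 10000, photoconversion left of control; black lines are medians. Apoe medians in photoconversion are 12.7 in cycling and 104.8 in other deep cells, and in control 29.99 and 120.9.

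The wider state lists followed the same split by depth. Of 24 measured disease-associated genes 0 were at least 2-fold higher in cycling than in other cells, against 13.4% of all genes. At least 2-fold lower were 5, against 24.6% of all genes, and the median log2 ratio of the 24 was -0.13. Against deep other cells the median was -0.50, and 8 of the 24 were at least 2-fold lower, as were 1027 of 6415 genes. The 5, named after their values were seen, were Apoe, Itgax (0.226, 0.0612 to 0.582), Spp1 (0.422, 0.249 to 0.671), Gpnmb (0.471, 0.0563 to 1.74) and Lilrb4a (0 UMIs in cycling and 26 in other cells), and the intervals of Gpnmb and Lilrb4a include 1. By contrast Ccl6, a chemokine, had 1.46 (1.305 to 1.62), Cd52 1.32 (1.19 to 1.46) and Ctsd, a lysosomal protease, 1.02 (0.987 to 1.06). Of 24 homeostatic genes 0 were at least 2-fold higher, against 13.4% of all genes. At least 2-fold lower were 3 (Sall1, Txnip and Rhob, named after their values were seen), again against 24.6% of all genes. The median log2 ratio of the homeostatic genes was -0.57 against all other cells and 0.15 against deep other cells. Over all genes the medians were 0.11 and 0.19, which also stand beside those of the disease-associated genes. The value of 0.15 is thus not read as a rise. Fcrls and Sparc had ratios of 1.39 (1.26 to 1.53) and 1.31 (1.18 to 1.44), and Cst3 had 0.602 (0.586 to 0.618). In a cycling cell 4.57 to 12.4% of UMIs came from the disease-associated and 3.00 to 8.10% from the homeostatic list.

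Between libraries, Mki67, Top2a and Hist1h2ap were higher after photoconversion and the other 7 genes had ratios below 1. Mki67 had 35 UMIs in photoconversion (19.3 CPM) and 13 in control (5.37 CPM), a ratio of 3.59 (1.85 to 7.40). Top2a had 54 UMIs in photoconversion (29.7 CPM) and 32 in control (13.2 CPM), and its ratio was 2.25 (1.43 to 3.60). For Hist1h2ap the library sums were 206 UMIs in photoconversion (113 CPM) and 102 in control (42.1 CPM), which gave 2.69 (2.11 to 3.45). These 3 passed 1.5-fold higher and 0 of the 10 passed 1.5-fold lower, against 6.28% and 9.84% of 8823 genes. A ratio above 1 was found for 42.3% of all genes and 3 of these 10, and the median log2 ratio was -0.21 over the 10 and -0.06 over all genes.

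Of the remaining genes 3 had intervals below 1. Stmn1 stood at 115 CPM in photoconversion and 151 CPM in control, a ratio of 0.762 (0.640 to 0.905), Hmgb2 at 74.3 CPM in photoconversion and 96.2 CPM in control, a ratio of 0.773 (0.621 to 0.959), and Tubb5 at 324 CPM in photoconversion and 393 CPM in control, a ratio of 0.826 (0.744 to 0.917). Intervals of H2afz (0.977, 0.896 to 1.06), Pcna (0.861, 0.674 to 1.10), Birc5 (0.862, 0.530 to 1.38) and Cdk1 (0.851, 0.548 to 1.31) included 1. Other scalings raised every log2 ratio by 0.07, which put H2afz on the other side of 1. The same shift carries the upper limit of Hmgb2 just past 1, while those of Stmn1 and Tubb5 stay below 1. Monocyte markers stood at 29.7 CPM in photoconversion and 125 CPM in control cells, and their part in these ratios was not tested.

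The UMIs behind the 3 higher ratios lay mostly in the cycling cells. In the 3 photoconversion cells Mki67 had 11, 21 and 3 UMIs, Top2a 20, 19 and 13, and Hist1h2ap 101, 37 and 40. In the 7 control cells Mki67 had 0, 4, 3, 1, 3, 0 and 1 UMIs, Top2a 8, 16, 0, 4, 0, 1 and 1, and Hist1h2ap 1, 48, 2, 5, 1, 2 and 0. Control cell 2, with 25011 UMIs, lay within the range of the photoconversion cells for Top2a and Hist1h2ap UMIs, and the other 6 lay below it. For Mki67, control cells 2, 3 and 5, with 4, 3 and 3 UMIs, lay within the photoconversion range of 3 to 21. Within cycling cells the ratio of summed CPM was 5.26 (2.67 to 11.1) for Mki67, 3.13 (1.96 to 5.08) for Top2a and 5.45 (4.04 to 7.44) for Hist1h2ap. H2afz, at 1.45 (1.22 to 1.72), also had an interval above 1 there. Intervals included 1 for Cdk1 (1.56, 0.874 to 2.75), Stmn1 (1.18), Pcna (1.16), Birc5 (1.12), Hmgb2 (1.11) and Tubb5 (0.987, 0.804 to 1.21).

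Removing the 10 cycling cells takes out most UMIs of the core genes by construction, since these genes chose the cells. Mki67 then had 0 photoconversion UMIs and 1 control UMI, and Top2a had 2 and Birc5 3 in each library. For Hist1h2ap 28 photoconversion and 43 control UMIs remained, giving 0.859 (0.514 to 1.41). Without the single richest cell of each library the ratio was 2.08 (0.838 to 5.45) for Mki67, 2.84 (1.53 to 5.52) for Top2a and 2.60 (1.86 to 3.68) for Hist1h2ap. Without the 10 richest cells of each library Mki67, Top2a and Birc5 had 0 UMIs in both. This too was by construction, since fewer than 10 cells of each library carried each of them. Hist1h2ap then had a ratio of 0.883 (0.477 to 1.599), and 0 of the 7 genes left had a ratio above 1. The 10 cells were a larger part of 317 photoconversion than of 555 control cells, so this removal was not equal between the libraries.

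Among the cells that were not cycling, the ratios of Stmn1, Hmgb2 and Tubb5 had intervals below 1. Stmn1 had 50 photoconversion and 123 control UMIs there, a ratio of 0.536 (0.378 to 0.750), and 0.535 (0.349 to 0.804) without the 10 richest cells. Hmgb2 had 74 photoconversion and 134 control UMIs, a ratio of 0.728 (0.541 to 0.974), and Tubb5 had 437 and 673, a ratio of 0.856 (0.757 to 0.967). Raised by the 0.07 in log2 of the other scalings, the upper limits of Hmgb2 and Tubb5 would pass 1, and that of Stmn1 would not. Thinned to 1000 UMIs these cells gave 9 and 26 UMIs of Stmn1, a ratio of 0.556 (0.229 to 1.22), and 11 and 30 of Hmgb2, a ratio of 0.589 (0.266 to 1.21), while Tubb5 had 0.883 (0.635 to 1.22), so all 3 intervals then included 1. Endothelial markers stood at 823 CPM in the 40 photoconversion and 1585 CPM in the 72 control Stmn1 carriers, and oligodendrocyte markers at 103 and 216 CPM; their part in the Stmn1 ratio was not tested.

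**Figure D5:**
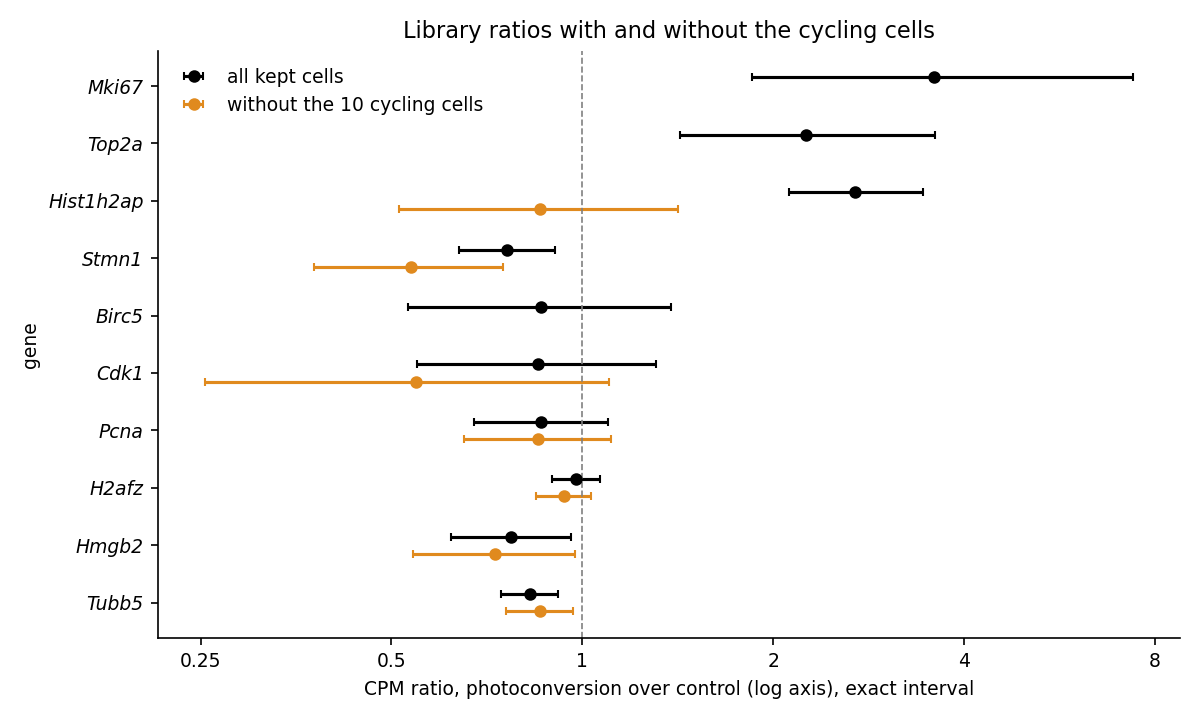
CPM ratio of photoconversion over control (x, log axis, 95% exact interval) for each gene, in all kept cells and without the 10 cycling cells, the second only for genes with at least 20 UMIs left. Hist1h2ap moves to 0.859 without the cycling cells, against 2.69 with them.

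The other cycle lists were also compared between libraries, where 6.28% of all genes were at least 1.5-fold higher, 9.84% at least 1.5-fold lower and 42.3% above 1. Of 23 measured G2 and mitotic genes 15 had a ratio above 1, 7 were at least 1.5-fold higher and 1 at least 1.5-fold lower after photoconversion, with a median log2 ratio of 0.45. Of 19 measured S-phase genes 4 had a ratio above 1, 1 was at least 1.5-fold higher and 5 at least 1.5-fold lower, with a median of -0.28. Prc1 had 19 photoconversion and 8 control UMIs (ratio 3.17, 1.32 to 8.37), and Atad2 had 23 and 10 (ratio 3.07, 1.40 to 7.22). Among the genes named from these lists, these ratios were the largest. Cks2 had 1.39 (1.001 to 1.92), Ube2c 1.36 (0.896 to 2.07) and Nusap1 21 and 14 UMIs (interval 0.970 to 4.25). Tk1 (0.986), Rfc2 (0.938) and Slbp (0.800) lay below 1, with intervals that included 1. Among measured genes, intervals also lay above 1 for Smc4 (1.91, 1.21 to 3.02) and Cdca8 (2.33, 1.10 to 5.20). They lay below 1 for Cenpa (0.529, 0.303 to 0.891) and Rpa2 (0.413, 0.203 to 0.784). These genes were named here after their values were seen. All 27 Prc1 UMIs and 17 of 33 Atad2 UMIs lay in cycling cells. Of the 1360 UMIs of the G2 and mitotic list 1011 lay in the 10 cycling cells, and of the 1414 UMIs of the S-phase list 350 did.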

How the data were processed

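The authors deposited unnormalized UMI counts as a gene-by-barcode matrix. The submitters' processing notes name bcl2fastq, Cell Ranger and mm10, and the software version is 3.0.2 per the file headers. The table of the whole series was not used. The 10 genes and all gene lists were chosen with earlier results of these data known. Cells had at least 200 genes and at most 10% mitochondrial UMIs, and doublets were not removed. UMIs of a gene were summed per library, or over cycling and other cells, and scaled to the sum of all genes (CPM), with 0.5 UMIs added for log2 ratios. Sums carry exact Poisson, ratios exact conditional binomial and shares exact Clopper-Pearson intervals, and share differences combine the limits of both shares. These steps and the thinning were tested on simulated data. There was no test, because each group is 1 library; called means at least 1.5-fold between libraries or 2-fold between cells. Lists were summarised over genes with at least 20 UMIs; 2 list entries had no match. Named genes were all 10 members, from each list the 2 with most UMIs and the 2 with the largest ratio of cycling over other cells, the 3 state genes and the 10 most alike genes; others are marked or come with a count, and 1 gene that the rule names is not reported here. Coordinates come from GENCODE vM21 by Ensembl identifier. Tools were Python 3.11.15, scipy 1.17.1, edgeR 4.0.16 (TMM) and DESeq2 1.42.0 (size factors only). Depth was 2038693 UMIs in photoconversion and 2672902 in control, of which kept cells held 1816177 and 2422711.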

Additional observations from a re-analysis of the deposited data

Results flagged for a closer look

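Barcodes that were not kept as cells, 1683 in the photoconversion and 1445 in the control library, enter none of the comparisons above. Stmn1 stood above the control level in them, with 54 UMIs (243 CPM) after photoconversion and 37 UMIs (148 CPM) in the control, a ratio of 1.64 (1.06 to 2.56). In kept cells its ratio was 0.762, the other way. Neuron markers in the same barcodes had 130 UMIs (584 CPM) after photoconversion and 82 UMIs (328 CPM) in the control, neutrophil markers stood at 3002 and 847 CPM, and their part in the Stmn1 value was not tested. The summed core genes had 11 and 5 UMIs there, a ratio of 2.47 (0.792 to 9.08), and 0 of these barcodes in either library had 3 core genes.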

How the results depend on the processing

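No paired analysis was possible because each group is 1 library. Settings were filters on cells, depth, scaling, richest cells and the cycling rule; a minimum of 10 other cycle genes and the restriction to cells above 10000 UMIs were chosen after seeing the data. The median log2 ratio of the 10 genes was below 0 in 15 of 15 settings (-0.34 to -0.04). In the main setting it was -0.21, and the medians of the genes' lower and upper limits were -0.50 and 0.26, a range that includes 0. The median over all genes was -0.06, so no decrease is read from this value. The number of genes above 1 was 5 with at most 5% mitochondrial UMIs and 0 without the 10 richest cells, where Mki67, Top2a and Birc5 had no UMIs left by construction. The cycling share difference was 3.84 points (-1.70 to 9.62) with at least 3 of the other cycle genes. Above 10000 UMIs it was -2.74 points (-12.7 to 7.30), and both intervals include 0. Cst7 had a ratio of 1.24 without cells above 20000 UMIs, 0.955 without its richest cycling cell, 1.28 with 3 and 1.37 with 10 other cycle genes, 0.694 above 10000 UMIs, and 0.772 in photoconversion and 1.28 in control cells. P2ry12 had 0.191 (0.0231 to 0.690) in thinned cells. That value is 2 UMIs in the 4 cells that met the rule after thinning, so it is not read. In the 10 main cycling cells, thinned P2ry12 averaged 0.8 UMIs, against 2.63 in other cells and 0.858 in those above 10000 UMIs. The P2ry12 ratio was 0.261 without cells above 20000 UMIs, 0.887 in photoconversion and 0.428 in control cells, and turned to 1.12 above 10000 UMIs. Apoe had 0.389 (0.201 to 0.679) in thinned cells, from 12 UMIs in the same 4 cells. In the 10 main cycling cells, thinned Apoe averaged 3.9 UMIs, against 7.75 in other cells and 13.2 in those above 10000 UMIs. It was detected in 80.0% of these cycling and 79.3% of other cells. The Apoe ratio was 0.469 without cells above 20000 UMIs, 0.246 without its richest cycling cell, 0.419 with 2 core genes and 0.387 with 10 other cycle genes. It was 0.239 in photoconversion cells, 0.343 in control cells and 0.214 above 10000 UMIs. With 3 of the other cycle genes, a rule met by 163 cells, it turned to 1.02, and the cause was not tested. The low number of cycling cells limits every value here.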
